A study of Mus musculus with 24 samples.

Results

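The 3 mouse genes that encode the GLI transcription factors, Gli1, Gli2 and Gli3, were described here by the ChIP-seq peaks called over them. A peak was a member when it overlapped the mm10 gene body or the 20 kb on either side of it, and 262 of the 368246 peaks in 7 deposited lists were members. Gli1 held 38 of them, Gli2 held 118 and Gli3 held 106. The windows differed in length, with 52.093 kb for Gli1, 259.488 kb for Gli2 and 306.792 kb for Gli3. Gli1 (ENSMUSG00000025407) lies on the minus strand of chr10:127329882-127341974, Gli2 (ENSMUSG00000048402) on the minus strand of chr1:118834132-119053619 and Gli3 (ENSMUSG00000021318) on the plus strand of chr13:15463235-15730026. The Gli1 window is crowded with other genes, namely Mars, Arhgap9, Inhbe, Inhbc, the pseudogene Gm6283 and the antisense gene Gm47200, so peaks that overlapped Gli1 itself were counted apart from those of its neighbours.

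GLI proteins are the zinc finger factors at the end of the Hedgehog pathway. Without ligand, GLI3 and to a lesser extent GLI2 are processed into repressors of transcription, and with ligand this processing stops and full-length GLI2 is the main activator. Gli1 is itself a target gene of the pathway, encodes only an activator and is widely used as a readout of Hedgehog activity, while in the limb bud Sonic hedgehog (SHH) comes from the posterior margin and GLI3 repressor shapes the digit pattern. Of the marks measured, H3K27ac accompanies active enhancers and promoters, H3K4me2 accompanies active and primed ones, and H3K27me3 is deposited by Polycomb.

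The study compared chromatin with and without Hedgehog signaling in 2 systems, through 14 immunoprecipitations and 10 inputs. Forelimb buds came from Swiss Webster background embryos at E10.5, with 32 to 35 somites and about 400000 cells per ChIP, and were either WT or Shh-/-, a null of the ligand gene throughout the embryo. By the study's methods, heterozygous littermates were pooled with WT as controls, and forelimbs of several embryos were pooled. H3K27ac and H3K4me2 lists of both genotypes and the H3K27me3 list of Shh-/- limbs were used, and WT H3K27me3 was not analysed here. NIH3T3 cells, an established mouse fibroblast line, were kept in low serum and given 400 nM purmorphamine, an agonist of the Hedgehog transducer SMO, or DMSO for 48 hours, with about 1000000 cells per H3K27ac ChIP. The labels of both NIH3T3 arms also carry the unexplained word LIF. Limb and NIH3T3 H3K27ac were made with different antibodies, so peak numbers were compared within each system only.

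Every list was called on both replicates of a condition together. There is therefore no spread between replicates for any value below, no test was possible, and each contrast is a description of 2 lists. A peak was called unshared when it had not 1 base in common with a peak of the opposite condition, and the share of unshared peaks over the whole list is given as the background. Unshared peaks are mostly weak ones, so each gene's count is also set beside the number of unshared peaks that the same rank deciles of the whole list would give. Rank is given as a percent of the list, with low percents for the strongest peaks, and the height of a peak is its largest log2 ratio of ChIP to input. In all of these values a smaller share of cells that carry a mark and less of the mark in each cell cannot be told apart.

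The labelled sources were checked on marker genes by an H3K27ac peak within 2 kb before to 1 kb after the gene start. All 5 limb mesenchyme markers carried one in WT and in Shh-/- limbs, against 1 of 5 in either NIH3T3 list, while all 5 fibroblast markers carried one in both NIH3T3 lists and 3 of 5 did in both limb lists. NIH3T3 cells also had 1 of 5 muscle precursor and 1 of 5 blood markers in both lists, and 1 of 5 surface ectoderm markers with purmorphamine. Of the other cells a limb bud can hold, WT limbs had 0 of 5 markers of surface ectoderm, 0 of 5 of muscle precursors, 0 of 5 of blood and 1 of 5 of endothelium, namely Cdh5. The Shh-/- list differed in having 2 of 5 muscle precursor markers, Pax3 and Lbx1, and no endothelial one. The part of these cells in the results was not tested.

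Reference sequence from mm10 is shown for 3 intronic peaks that carry the contrast between the genes, because each stands for a different behaviour. The Gli1 stretch opens the best-ranked WT limb acetylated peak of Gli1, over which purmorphamine-treated cells also had a peak and Shh-/- limbs and DMSO had none (chr10:127339400-127339699, within an intron). The Gli2 stretch is centred on the summit of the best-ranked Gli2 peak found in purmorphamine but not in DMSO (chr1:119021982-119022181, within an intron). The Gli3 stretch is centred on the summit of its best-ranked WT limb peak away from the gene start, acetylated in both genotypes (chr13:15548902-15549101, within an intron). All are printed on the plus strand, and capitals mark matches with 1 mismatch to the GLI consensus GACCACCCA on either strand.
Gli1 intron: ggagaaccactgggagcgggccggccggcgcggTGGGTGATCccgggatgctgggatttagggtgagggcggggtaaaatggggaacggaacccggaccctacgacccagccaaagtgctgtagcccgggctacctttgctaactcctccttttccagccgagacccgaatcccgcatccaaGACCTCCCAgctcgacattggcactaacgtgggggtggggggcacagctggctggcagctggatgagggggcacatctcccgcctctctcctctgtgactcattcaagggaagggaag
Gli2 intron: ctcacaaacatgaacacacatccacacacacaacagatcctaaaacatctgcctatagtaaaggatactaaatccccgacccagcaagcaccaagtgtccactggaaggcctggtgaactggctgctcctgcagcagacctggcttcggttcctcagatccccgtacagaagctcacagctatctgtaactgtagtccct
Gli3 intron: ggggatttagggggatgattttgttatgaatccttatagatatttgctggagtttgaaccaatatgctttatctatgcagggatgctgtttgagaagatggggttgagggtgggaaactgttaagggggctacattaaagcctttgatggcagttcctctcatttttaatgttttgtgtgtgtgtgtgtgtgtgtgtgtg

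The Gli1 stretch of 300 bases held 2 such matches. The first lies at chr10:127339433-127339441 on the minus strand, so that its reverse complement is printed, and differs from the consensus by C3T, counted from 1 at the 5′ end of the consensus. The second lies at chr10:127339582-127339590 on the plus strand and differs by A5T. The Gli2 and Gli3 stretches of 200 bases held no match. Their base composition differed as well, with 63.3% G and C and 17 CpG in the Gli1 stretch, 50.5% and 3 CpG in the Gli2 stretch, and 41.5% and 0 CpG in the Gli3 stretch.

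In the limb, H3K27ac over Gli1 was present in WT and was not called in Shh-/- limbs. The WT list had 3 peaks over the gene, all within 2.57 kb of its start, and the Shh-/- list had none there. The best-ranked, chr10:127339400-127339999 in an intron, was 600 bp wide with a log2 ratio of 5.34 and stood at 4.40% of the list. The second, chr10:127340100-127341499, covered 1400 bp of intron and 5′ end at a log2 ratio of 4.96 and 7.05% of the list. The third, chr10:127341650-127341949, was weaker, with 300 bp, a log2 ratio of 3.05 and 52.6% of the list. Together they covered 2300 bp of the gene body in WT against 0 bp in Shh-/-.

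The only acetylated peak the genotypes shared in the Gli1 window was not at Gli1 but at its neighbour Mars, which encodes a methionyl-tRNA synthetase. It was chr10:127311200-127311699 in WT, with a log2 ratio of 4.71, and chr10:127311500-127311699 in Shh-/-, with 2.96, a difference of 1.75. With it, 3 of 4 WT peaks of the window were unshared (75.0%, 95% Wilson interval 30.1 to 95.4), where the same rank deciles of the whole list would give 0.658 peaks. Over the whole WT list 48.5% of peaks were unshared. The Shh-/- side had 0 of 1 unshared peaks, against 38.4% of its list. With 50 kb on either side, which takes in further genes, the WT share was 36.4%. With so few peaks the interval still holds the background, and what sets Gli1 apart is the rank of the unshared peaks rather than their number. Of the shared WT peaks over the whole list, 12.5% stood at least 1 log2 unit above the Shh-/- peak, and the Mars peak was one of them.

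**Figure D1:**
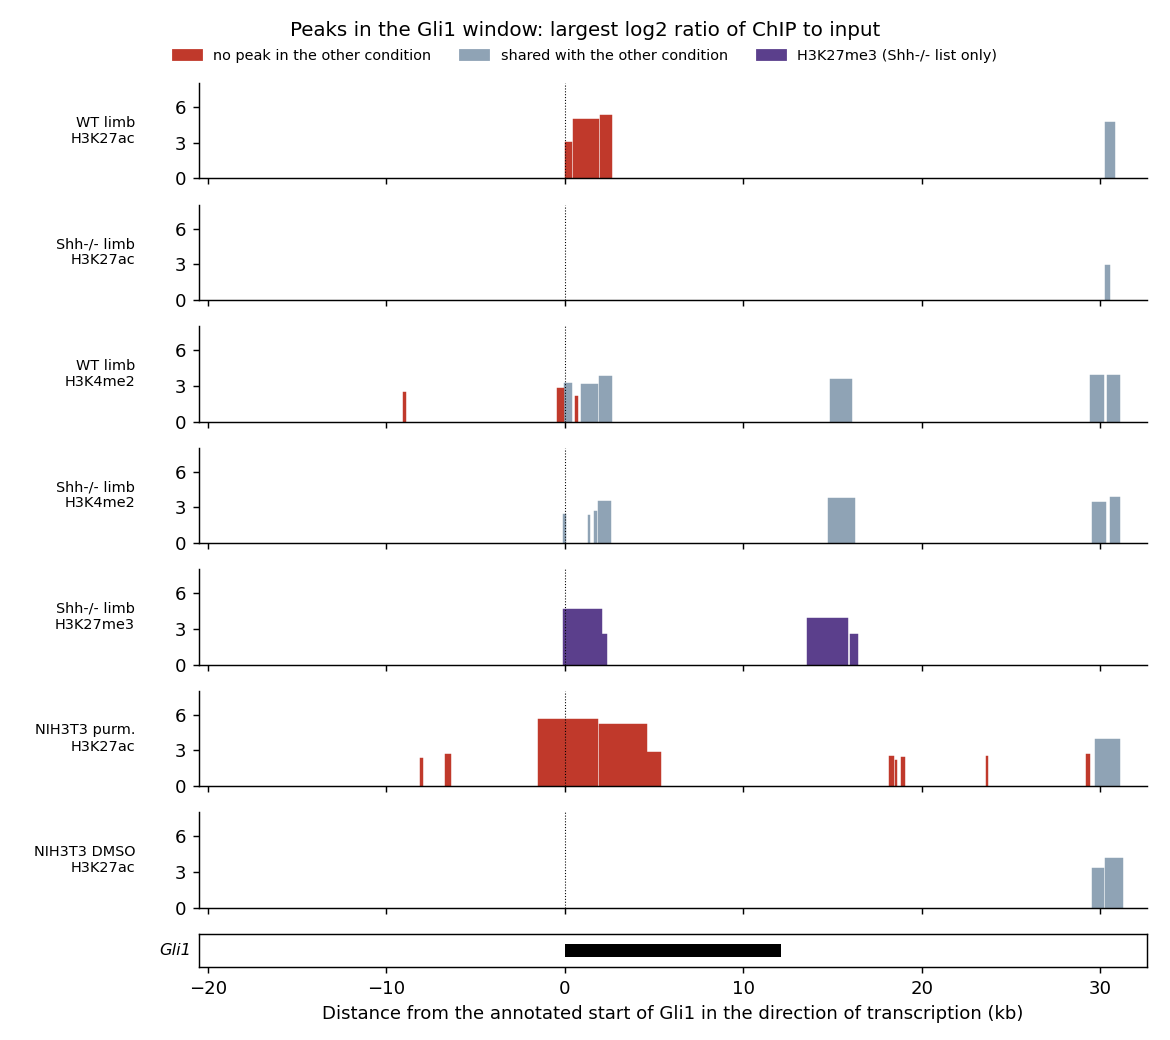
Peaks in the Gli1 window in the 7 lists, by distance from the annotated gene start in kb (x axis) and largest log2 ratio of ChIP to input (height of each bar, y axis), with bar width equal to peak width and the gene drawn as a black bar at the bottom. Acetylation near the start appears in WT limb and in purmorphamine only (red, no peak in the opposite condition), where the Shh-/- limb has H3K27me3 (purple).

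H3K27me3 of the Shh-/- limb overlapped the bases of Gli1 acetylated in WT only, the best-ranked peak in part and the others in full. One peak of 2100 bp, chr10:127339950-127342049, spanned the gene start with a log2 ratio of 4.67 and stood at 1.37% of the H3K27me3 list. Another of 250 bp, chr10:127339650-127339899, lay inside the best-ranked WT acetylated peak at a log2 ratio of 2.58 and 43.3% of the list. All 3 of the WT-only acetylated peaks of Gli1 were overlapped by H3K27me3 of the Shh-/- limb, which held for 0.69% of WT-only peaks over the whole list. These 3 lie in 1 stretch of overlapping peaks and are not separate events, and the background holds mostly weak peaks. Of gene starts acetylated in WT and not in Shh-/- limbs, 79 of 1060 carried H3K27me3. Because no WT H3K27me3 list was used, these data do not say whether the mark differed between genotypes. The remaining H3K27me3 peaks of the window lay at Arhgap9, with 2250 bp at chr10:127326150-127328399 (log2 ratio 3.88, 6.04% of the list) and 400 bp at chr10:127325600-127325999 (2.56, 32.5%). No acetylated peak of either genotype lay there.

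H3K4me2 near the Gli1 start was narrower in the Shh-/- limb but still in the deposited list. Over the start window, taken as 2 kb before to 1 kb after the annotated start, it covered 926 bp in WT and 100 bp in Shh-/-. The 100 bp in Shh-/- was a single peak with a false discovery rate of 0.058, above the study's limit of 0.05. Also above that limit were the Shh-/- intron fragment of 100 bp described below (0.078) and the WT peak chr10:127341300-127341399 (0.097). In the intron, the WT peak chr10:127339400-127340049 (log2 ratio 3.80, 20.0% of the list) faced chr10:127339450-127340099 in Shh-/- (3.55, 30.7%), equal in width at 650 bp. Nearer to the start the WT peak chr10:127340150-127341049 of 900 bp (3.12, 48.0%) faced 2 fragments of 150 and 100 bp in Shh-/- with log2 ratios of 2.66 and 2.37. At the start itself the WT peak chr10:127341600-127341999 (3.25, 42.7%) faced chr10:127341950-127342049 (2.43, 88.8%), and the WT peaks chr10:127341300-127341399 (2.13) and chr10:127342050-127342399 (2.85) had no counterpart. The intronic peak farther from the start was thus of equal width in both genotypes, while the nearer intronic peak and that at the start faced only fragments in Shh-/-.

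By number, 3 of 9 WT H3K4me2 peaks of the Gli1 window were unshared (33.3%, interval 12.1 to 64.6, list 25.7%) and 0 of 7 in Shh-/- (list 22.5%). Of these 7 Shh-/- peaks, 5 were overlapped by H3K27me3, against 11.4% of the Shh-/- H3K4me2 list. A peak at Arhgap9 was among these 5. The others lay at Gli1 and all touched the same H3K27me3 peak of 2100 bp, so they are not separate events. Outside the gene, the Mars peaks had log2 ratios of 3.94 and 3.88 in WT and of 3.43 and 3.89 in Shh-/-, and the Arhgap9 peak was wider in Shh-/- (1500 bp, 3.76) than in WT (1150 bp, 3.53).

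In NIH3T3 cells the acetylated stretch at Gli1 was present with purmorphamine and not called in DMSO. The purmorphamine peak over the start, chr10:127340150-127343449, was 3300 bp wide with a log2 ratio of 5.60 and stood at 0.109% of 87779 peaks, which is rank 96. The adjoining chr10:127337400-127340049 was 2650 bp wide at 5.19 and 0.812% of the list, and chr10:127336650-127337349 reached 700 bp at 2.84 and 46.9%. They covered 5175 bp of the gene body and 2476 bp of the start window, where DMSO covered 0 bp of either.

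Over the whole Gli1 window 10 of 11 purmorphamine peaks were unshared (90.9%, interval 62.3 to 98.4), against 36.5% of the list and 4.26 peaks by the same rank deciles. The other 7 of these 10 were 100 to 300 bp wide, lay outside Gli1 and stood past 50% of the list. Both DMSO peaks of the window lay at Mars, chr10:127310750-127311699 (log2 ratio 4.17) and chr10:127311850-127312449 (3.33), and both were shared, so 0 of 2 were unshared against 41.1% of the DMSO list. There the purmorphamine peak was not the higher one, with a log2 ratio of 3.97 against 4.17.

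The limb and the fibroblast stretches coincided at Gli1. All 3 WT-only limb peaks were overlapped by a purmorphamine-only peak, which held for 2.81% of WT-only peaks over the whole list. The 3 limb peaks lie under 2 purmorphamine peaks in 1 stretch of overlapping peaks, so they are not separate events. Read from the other side, 2 of the 10 purmorphamine-only peaks of the window were overlapped by a WT limb peak, against 5.26% of the purmorphamine-only list. The acetylated stretch reached 5.32 kb into the gene in the fibroblasts and 2.57 kb in WT limbs. Antibodies and cells per ChIP differed between the systems, so these extents cannot be compared.

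Gli2, by contrast, was acetylated at its start in every list. The WT limb peak chr1:119051450-119055149 was 3700 bp wide at a log2 ratio of 5.54 (3.33% of the list), and the Shh-/- peak chr1:119051600-119055449 was 3850 bp wide at 6.09 (0.770%). A WT fragment of 150 bp, chr1:119055350-119055499, overlapped the same Shh-/- peak. The height was larger in Shh-/- than in WT, by 0.55. As WT less Shh-/-, this lay within the 5th to 95th percentiles over all shared WT peaks (-1.29 to 1.40). No such difference could be taken at Gli1, which had no Shh-/- start peak. In NIH3T3 the start peak was chr1:119049750-119054799 with purmorphamine, 5050 bp at 4.81, and chr1:119050850-119054399 with DMSO, 3550 bp at 4.21, a difference of 0.60.

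The other strong limb peaks of Gli2 were intronic and shared. The intronic peak that ends 148 kb from the start was chr1:118904150-118905999 in WT (1850 bp, log2 ratio 5.63, 2.94% of the list) and chr1:118904100-118905149 in Shh-/- (1050 bp, 4.87, 6.17%). That at 69.3 kb was chr1:118982600-118984349 in WT (1750 bp, 4.98), against 4.14 in Shh-/-. The one at 5.37 kb stood the other way, with 4.96 in WT and 5.27 in Shh-/- (chr1:119047550-119048249). The log2 ratio of WT less Shh-/- over the 13 shared WT peaks ran from -3.30 to 1.39 with a median of 0.22, beside a median of 0.14 over all shared peaks of the list. Only 1 of the 13 stood at least 1 log2 unit higher in WT. Taken over the 16 shared Shh-/- peaks instead, the median of WT less Shh-/- was 0.80, beside 0.35 over that list, and 4 of the 16 stood at least 1 log2 unit higher in WT. Each of these 4 faced a WT peak that overlapped more than 1 Shh-/- peak, so from this side a WT peak can count repeatedly. The share of such peaks over the whole Shh-/- list is not given here.

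Unshared limb peaks of Gli2 were as frequent as elsewhere and weak. They were 10 of 23 in WT (43.5%, interval 25.6 to 63.2), where the same rank deciles would give 10.6, and 6 of 22 in Shh-/- (27.3%, interval 13.2 to 48.2), where they would give 8.17. Of the 10 WT peaks, 7 had a Shh-/- peak within 500 bp. Only 2 of them ranked in the better 50% of the list, chr1:118908250-118908549 in an intron (log2 ratio 3.28, 40.8%) and chr1:118825300-118825499 past the gene end (3.19, 44.8%), and none in Shh-/- did. None of the 10 was overlapped by H3K27me3 or by a purmorphamine-only peak, and the Shh-/- H3K27me3 list had no peak in the Gli2 window at all.

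The stronger H3K4me2 peaks of Gli2 lay in the first 6.07 kb, with like heights in both genotypes. At the start, WT had chr1:119051250-119053449 (2200 bp, log2 ratio 3.99), chr1:119053700-119054499 (800 bp, 3.72) and the unshared chr1:119054700-119054899 (200 bp, 3.02). Shh-/- had chr1:119051250-119052499 (1250 bp, 4.02), chr1:119052750-119053299 (550 bp, 3.21) and chr1:119053650-119054449 (800 bp, 3.59). The peak chr1:119048750-119049349 was the exception, at 3.83 in Shh-/- and 2.53 in the overlapping WT peak. Of the WT peaks 6 of 10 were unshared (60.0%, interval 31.3 to 83.2, against 25.7% of the list and 3.42 by the same rank deciles), and of the Shh-/- peaks 2 of 7 (against 22.5% and 0.844). Of these, 5 of those 6 and both of those 2 had a counterpart within 500 bp. The better-ranked of the unshared Shh-/- peaks was chr1:118982800-118983199 (3.21, 45.7%), inside the acetylated intronic peak at 69.3 kb, and none of the 7 was overlapped by H3K27me3.

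**Figure D2:**
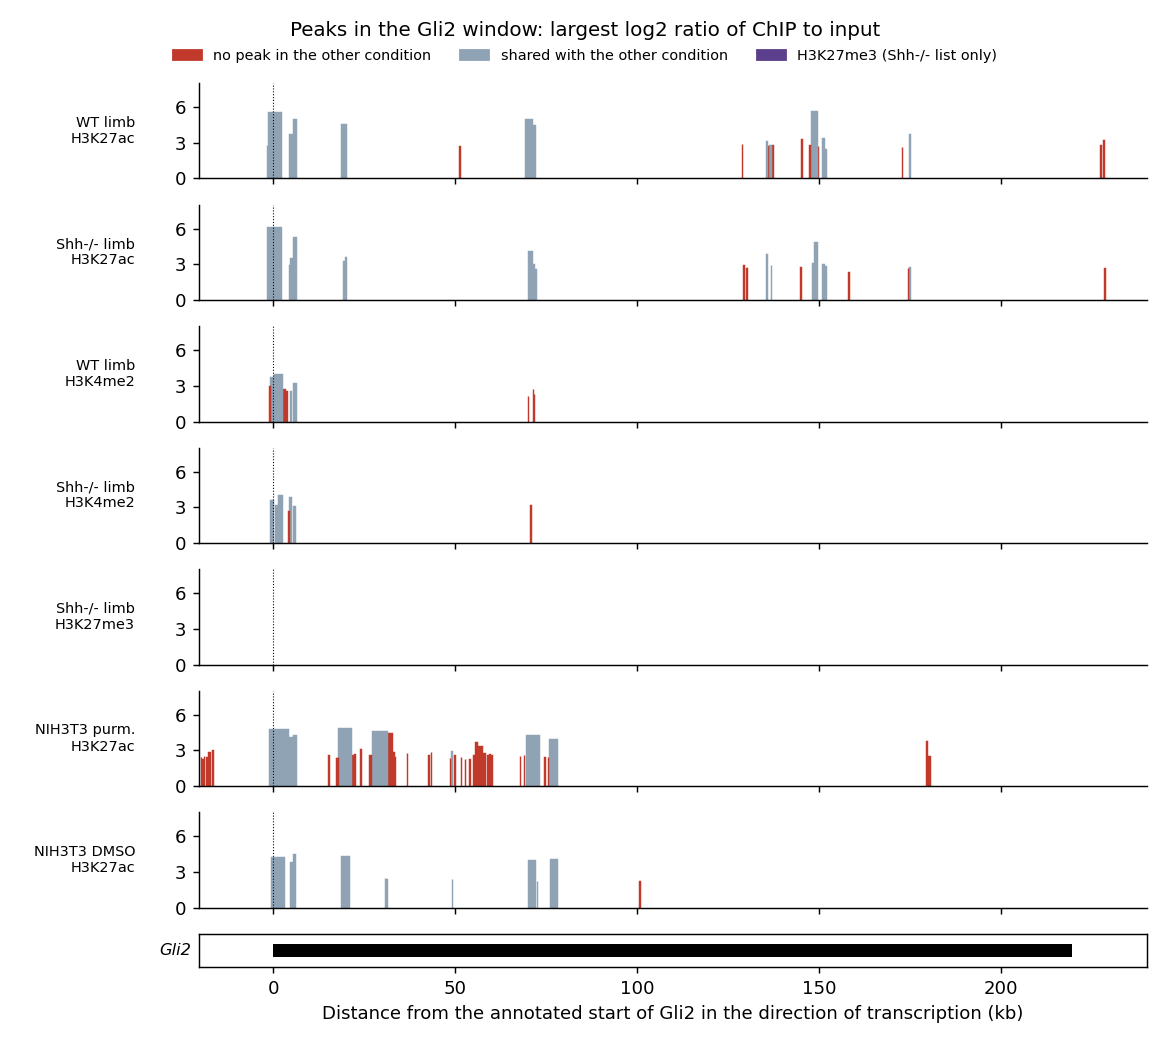
Peaks in the Gli2 window in the 7 lists, drawn by distance from the annotated gene start in kb (x axis) and largest log2 ratio of ChIP to input (y axis), with bar width equal to peak width plus a thin outline. The limb lists resemble each other and the H3K27me3 track is empty, while purmorphamine adds many unshared peaks (red) in the first 80 kb of the gene and just upstream of it.

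In NIH3T3 cells the Gli2 window had more purmorphamine-only peaks than either of the other windows. Purmorphamine peaks covered 12.5% of it, against 17.7% of the shorter Gli1 window. The purmorphamine list had 45 peaks in the window and DMSO had 11, and they covered 32500 and 11850 bp, a ratio of 2.74 where the whole lists gave 0.938. Of the 45, 37 were unshared (82.2%, interval 68.7 to 90.7), against 36.5% of the list and 18.0 by the same rank deciles. On the DMSO side 1 of 11 was unshared (9.09%, interval 1.62 to 37.7), against 41.1% of the list. Unlike Gli1, these peaks were added beside a start that was acetylated in both conditions.

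Most of the purmorphamine-only peaks lay in the 5′ part of the gene body. Those with midpoints 20 to 40 kb into the gene numbered 8 of 9 purmorphamine peaks, and those between 40 and 60 kb numbered 14 of 15. The longest unbroken run was 13 purmorphamine-only peaks from chr1:118984650 to 119004049, covering 4050 bp and standing at 20.8 to 97.4% of the list. A further 6 lay upstream of the gene between genes, where DMSO had none. The last of these inside the window, chr1:119073450-119073599, ended just short of its edge, and another purmorphamine peak, chr1:119073750-119073949, lay 131 bp beyond the edge and was not counted.

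Of the 37, 9 ranked in the better 50% of the list. The best was chr1:119021150-119022449 (1300 bp, log2 ratio 4.43, 6.57%), whose sequence is printed above, followed by chr1:118873900-118874399 (500 bp, 3.79, 17.2%), which lay 179 kb into the gene, far from the others. The pair chr1:118997600-118998199 (600 bp, 3.68) and chr1:118996200-118997349 (1150 bp, 3.39) belonged to the long run. The remaining 5 were chr1:119029500-119029949 (3.13), chr1:119070200-119070599 (3.05), chr1:119010250-119010449 (2.90), chr1:119071150-119071699 (2.85) and chr1:119020600-119020949 (2.85). Only the first stood in the better 10% of the list, whereas 2 of the 3 purmorphamine-only peaks over Gli1 stood in the better 1%.

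The unshared count leaves out one of the larger differences at Gli2. The purmorphamine peak chr1:119022550-119026499 was 3950 bp wide with a log2 ratio of 4.61 (4.56% of the list) and counted as shared because it touched DMSO peaks of 200 bp (2.39) and 100 bp (2.51). It was the only shared purmorphamine peak of the 3 genes that stood at least 1 log2 unit above its DMSO peak, as did 3.19% of shared peaks over the list. The peak at 17.7 kb was 3700 bp wide with purmorphamine (chr1:119032200-119035899, 4.85) and 2200 bp with DMSO (chr1:119032800-119034999, 4.32). The intronic peak at 5.37 kb stood slightly the other way, at 4.26 with purmorphamine and 4.51 with DMSO (chr1:119047600-119048199). Over the 8 shared peaks the median difference of purmorphamine less DMSO was 0.40, beside -0.11 over the whole list.

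Of the 37 purmorphamine-only peaks of Gli2, 0 were overlapped by a WT limb acetylated peak, against 5.26% over the whole list, a share that would give few among 37. Of the 68 separate elements made by merging overlapping peaks of all lists, 37 were acetylated in purmorphamine alone, 10 in WT limbs alone, 6 in Shh-/- limbs alone and 5 in all 4 acetylation conditions. Those 5 common elements included the gene start and the peaks at 5.37, 17.7 and 69.3 kb.

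Gli3 carried the strongest limb start peak of the 3 genes, and it was called in all 4 acetylation lists. In WT limbs it was chr13:15461850-15467949, 6100 bp wide with a log2 ratio of 6.44 (0.630% of the list). In Shh-/- limbs it was chr13:15461900-15467949, 6050 bp wide at 6.98, which is rank 21 of 43916. In NIH3T3 it was chr13:15462350-15466199 with purmorphamine (3850 bp, 5.33, 0.335%) and chr13:15462300-15466849 with DMSO (4550 bp, 4.98, 0.868%). As at Gli2, the limb peak was higher in Shh-/-, by 0.54, and the fibroblast peak was higher with purmorphamine, by 0.36. Both lay within the 5th to 95th percentiles over all shared WT (-1.29 to 1.40) and purmorphamine (-1.61 to 0.87) peaks.

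The limb also held a broad acetylated cluster 79.8 to 98.3 kb into Gli3. Its strongest WT peak, chr13:15547100-15552199, was 5100 bp wide with a log2 ratio of 5.67 (2.76% of the list), and in Shh-/- it was covered by separate peaks, of which chr13:15549500-15552699 (3200 bp, 5.15) and chr13:15548750-15549299 (550 bp, 4.57) were the strongest. The WT peak chr13:15543050-15544449 had a log2 ratio of 5.26 against 4.17 in Shh-/-, and was 1 of 2 shared WT peaks of Gli3 at least 1 log2 unit above Shh-/-. Over the whole list 12.5% of shared WT peaks stood so high. Over the 14 shared WT peaks the median difference was -0.03, and over the 15 shared Shh-/- peaks it was 0.33. Differences at the 15 ran from -0.54 to 3.07, where the 5th and 95th percentiles over that list were -0.85 and 1.92. The whole lists gave medians of 0.14 and 0.35. From the Shh-/- side a WT peak covered by separate Shh-/- peaks counts once for each of them. The cluster was therefore acetylated in both genotypes, with its strongest peak more divided in Shh-/-.

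Unshared limb peaks of Gli3 matched the background in number. They were 14 of 28 in WT (50.0%, interval 32.6 to 67.4), where the same rank deciles would give 13.5, and 8 of 23 in Shh-/- (34.8%, interval 18.8 to 55.1), where they would give 8.23. In the better 50% of the WT list were chr13:15664050-15664349 (300 bp, log2 ratio 4.23, 15.5%), chr13:15556650-15556899 (250 bp, 3.43) and chr13:15555550-15555699 (150 bp, 3.32). In the better 50% of the Shh-/- list were chr13:15444400-15444599 (200 bp, 3.07) and chr13:15556450-15556649 (200 bp, 3.05), the latter ending where the second WT peak began. None of the 14 was overlapped by H3K27me3, and 1 was overlapped by a purmorphamine-only peak.

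**Figure D3:**
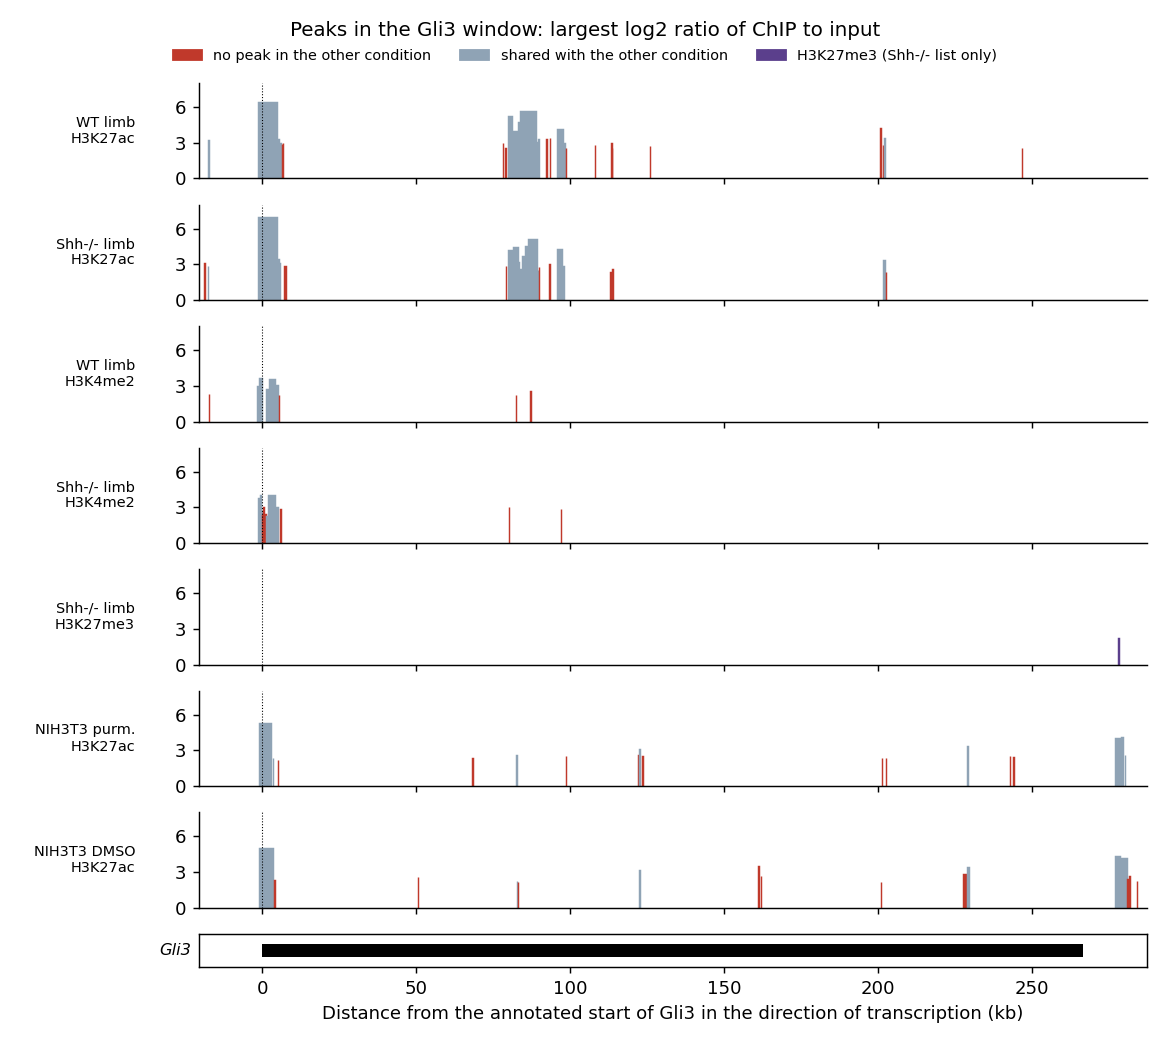
Peaks in the Gli3 window in the 7 lists, drawn by distance from the annotated gene start in kb (x axis) and largest log2 ratio of ChIP to input (y axis), with bar width equal to peak width plus a thin outline. The start peak appears in all 4 acetylation lists, the cluster at 79.8 to 98.3 kb appears in both limb lists, and the fibroblast peaks past the gene end appear in both NIH3T3 lists.

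H3K4me2 and H3K27me3 set Gli3 apart from Gli1 as well. At the start, WT H3K4me2 peaks were chr13:15461600-15462099 (500 bp, log2 ratio 2.99) and chr13:15462200-15463249 (1050 bp, 3.63). Those of Shh-/- were chr13:15461800-15462349 (550 bp, 3.79), chr13:15462450-15462849 (400 bp, 4.03) and 3 weaker fragments with log2 ratios of 2.32 to 3.00. They covered 1550 bp of the start window in WT and 1600 bp in Shh-/-, where Gli1 had 926 and 100 bp. Further into the gene the peak of 2050 bp at chr13:15465550-15467599 in WT (3.56) faced 2250 bp at chr13:15465100-15467349 in Shh-/- (4.05).

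In number, 4 of 9 WT and 6 of 12 Shh-/- H3K4me2 peaks of Gli3 were unshared, all of them in the weaker 50% of their lists. The whole lists had 25.7% and 22.5%, and the same rank deciles would give 3.23 and 3.41 peaks. The Shh-/- interval of 25.4 to 74.6 lay above its list share. The only H3K27me3 peak was chr13:15741400-15741499 past the gene end, 100 bp wide at a log2 ratio of 2.22 and 80.4% of the list. None of the 12 Shh-/- H3K4me2 peaks was overlapped by H3K27me3.

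In NIH3T3 cells the Gli3 window had fewer acetylated bases with purmorphamine than with DMSO. Purmorphamine peaks covered 8750 bp and DMSO peaks 11350 bp, a ratio of 0.771, where the whole lists gave 0.938. Over the gene body they covered 5615 and 6515 bp, and past the gene end 2250 and 3900 bp, so much of the difference lay outside the gene. Of the purmorphamine peaks 9 of 17 were unshared (52.9%, interval 31.0 to 73.8, against 36.5% of the list and 7.50 by the same rank deciles), and none of the 9 ranked in the better 50% of the list. Of the DMSO peaks 10 of 16 were unshared (62.5%, interval 38.6 to 81.5, against 41.1% of the list and 6.30 by the same rank deciles), and 4 of the 10 ranked there, led by chr13:15624300-15624699 (400 bp, log2 ratio 3.49, 19.5%). The others were chr13:15691050-15691799 (750 bp, 2.84), chr13:15625250-15625399 (150 bp, 2.66) and chr13:15744950-15745099 (150 bp, 2.66). The strong peaks past the gene end were shared, at 4.35 in DMSO and 4.02 with purmorphamine for chr13:15740300-15741949, and at 4.20 and 4.15 for chr13:15742150-15743999.

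**Figure D4:**
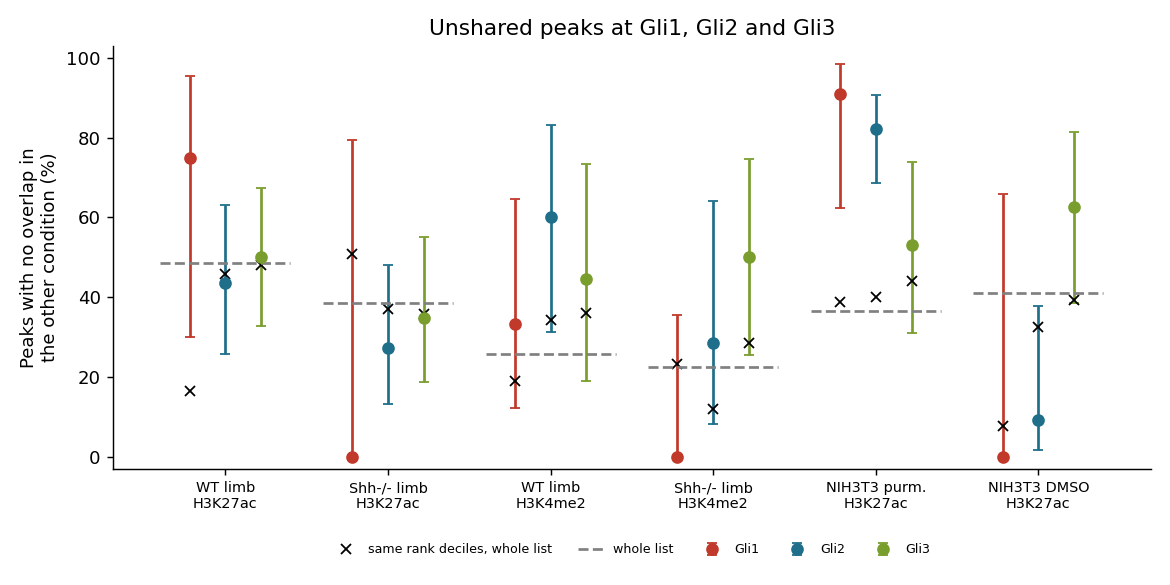
Percent of peaks of each gene with no overlapping peak in the opposite condition (y axis), for the 6 lists that have a counterpart (x axis). Points carry 95% Wilson intervals of the peak counts, crosses give the share expected from the same rank deciles of the whole list and dashed lines the share over the whole list, and the purmorphamine points of Gli1 (90.9%) and Gli2 (82.2%) are the ones whose intervals lie wholly above both.

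**Figure D5:**
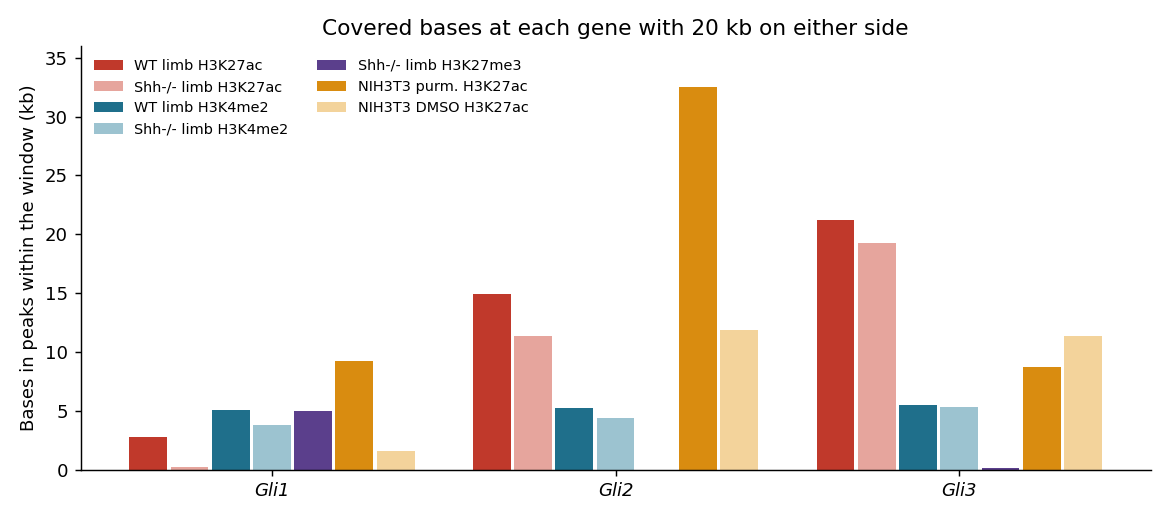
Bases inside peaks in the window of each gene in kb (y axis, from 0), with 1 bar for each of the 7 lists. Gli1 has 2.8 kb of H3K27ac in WT limbs and 0.2 kb in Shh-/- limbs, Gli2 stands at 32.5 kb with purmorphamine and 11.85 kb with DMSO, and Gli3 stands at 21.2 and 19.25 kb in WT and Shh-/- limbs and at 8.75 and 11.35 kb with purmorphamine and DMSO.

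Set side by side by bases, limb acetylation in the Gli1 window covered 2800 bp in WT and 200 bp in Shh-/-, a ratio of 14.0. Gli2 had 14900 and 11350 bp, a ratio of 1.31, and Gli3 had 21200 and 19250 bp, a ratio of 1.10, with 1.18 over the whole lists. In NIH3T3 the ratios of purmorphamine to DMSO were 5.94 for Gli1, 2.74 for Gli2 and 0.771 for Gli3, with 0.938 over the whole lists. Gli1 thus stood apart from both paralogs in the limb, whereas in the fibroblasts Gli2 stood with Gli1 in direction and Gli3 did not.

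Gene starts give the same contrast on a common scale. Of 21911 protein-coding genes, 9070 had a WT limb acetylated peak in the start window, and 1060 of these had none in Shh-/-. Gli1 was among these 1060, among the 79 of them with H3K27me3 in Shh-/- and among the 7 of those with acetylation in purmorphamine and not in DMSO. Without the H3K27me3 condition 22 genes met both acetylation patterns, 2.08% of the 1060 limb genes and 6.71% of the 328 fibroblast genes. Of all 21911 genes, 1060 had the limb pattern and 328 the fibroblast pattern, and an excess of shared genes was not tested. Gli1 had the best WT rank of the 22, followed by Hoxd11, a posterior limb patterning gene, and it also had the best purmorphamine rank.

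Gene starts most alike were found by the mean difference, over the 7 lists, of the rank of the best start peak scaled from 0 for no peak to 1 for the strongest. For Gli1 they included Hoxd11 (0.144), Sox18 (0.179), Pdgfa (0.202) and Matn4 (0.212). Of these, Sox18 and Matn4 had no acetylated start peak in either limb list, so they lacked the WT limb acetylation of Gli1. Only 6 other genes had start peaks in exactly the same lists as Gli1. For Gli2 they included Hsp90b1 and Ttc41, which share a start window (0.00808), Efna5 (0.0128) and Cap1 (0.0145). For Gli3 they were Ss18 (0.00541), Casd1 (0.00826), Zfp532 (0.00947), Smo (0.00986) and Bahcc1 (0.0102). Gli2 and Gli3 shared their set of lists with 7255 genes, so theirs was the common pattern and that of Gli1 the rare one. The start windows also differed in CpG, with an observed to expected ratio of 0.420 at Gli1, 0.563 at Gli2 and 0.802 at Gli3.

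Of 25 other Hedgehog pathway genes, 18 carried start acetylation in WT limbs and 16 in Shh-/- limbs. WT acetylation without Shh-/- acetylation was seen at 2 of these 18 starts, and none of the 25 showed the reverse. Over all protein-coding genes it was seen at 1060 of 9070 starts, a like share. In NIH3T3, 18 carried it with purmorphamine and 17 with DMSO. H3K27me3 in Shh-/- limbs lay at 7 of the 25 starts, among them those of the ligands Shh, Ihh and Dhh, the ligand-binding Hhip, and Scube2, which aids ligand release. The share over all gene starts is not given here. Over the windows of the 25 genes 44.1% of WT limb peaks (67 of 152) and 47.0% of purmorphamine peaks (109 of 232) were unshared, and the purmorphamine intervals of Gli1 and Gli2 lay above the latter share.

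The GLI consensus GACCACCCA, searched on both strands, did not occur in any of the 262 peaks, and over the whole lists 0.266 to 0.725% of peaks held it. In the windows it occurred 2 times at Gli1, 6 times at Gli2 and 1 time at Gli3, and one of the Gli1 occurrences, chr10:127331430-127331438, lies in a coding exon. With 1 mismatch allowed there were 15 matches in the Gli1 window, of which 8 lay in a peak, 88 at Gli2, of which 14 did, and 46 at Gli3, of which 2 did. In WT limb peaks this came to 1.43 matches per kb at Gli1, 0.336 at Gli2 and 0.0472 at Gli3, against 0.213 over the whole list. All 3 of the WT-only peaks of Gli1 held such a match, as did 8.74% of all WT peaks. Of RefSeq promoter entries (300 bases each, GRCm38), 0.253% held the exact motif and 6.74% a match with up to 1 mismatch.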

How the data were processed

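The authors aligned reads with Bowtie2 (version 2.2.5 in the submitters' processing notes) and called peaks against input with CisGenome on mm10, entering both replicates of a condition together, and the notes also name limma. The lists do not show how deeply each library was sequenced. The authors deposited for each peak a false discovery rate (a q-value, not used for ranking), a score that sets the deposited rank, the highest log2 of ChIP over input within the peak, and the −log10 of the smallest Poisson p-value, which is capped at 100. Groups were taken from the sample labels. Coordinates were used as deposited, as 1-based 50 bp bins.

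Lists were intersected in Python 3.11.15 with pandas 2.3.3, with 1 bp of overlap as the minimum. The overlap code was tested on simulated peaks against bedtools 2.31.1. Gene models came from GENCODE and bases from GRCm38. Wilson intervals at 95% cover counting error only, and peaks of a gene are not replicates. Peaks with full values were those in a start window, the 3 best-ranked per gene and list, and every unshared peak in the better-ranked 50% of its list. Motif matches are descriptions of letters, not of binding. The genes, the lists of markers and pathway genes and the rules were chosen with earlier results of these data known. Some of the genes that these rules select are not reported here.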

Additional observations from a re-analysis of the deposited data

Results flagged for a closer look

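Among the 3 genes, Gli3 was the one whose window had acetylated bases that moved in opposite directions in the 2 systems with Hedgehog signaling present. Peaks covered 1950 bp more in WT than in Shh-/- limbs, and in NIH3T3 they differed by -2600 bp between purmorphamine and DMSO, so fewer bases were covered with the agonist. Much of the NIH3T3 difference lay past the gene end, with 2250 bp against 3900 bp, and the gene body had 5615 against 6515 bp. The whole lists had the same directions, with ratios of covered bases of 1.18 in the limb and 0.938 in NIH3T3, against 1.10 and 0.771 at Gli3. Each side rests on 1 pair of pooled lists, so the difference between the systems was not tested.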

How the results depend on the processing

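The share of unshared peaks was recomputed for 18 gene and list pairs, and 145 of 175 recomputed shares stayed within their main interval. A limit of 0.05 on the false discovery rate and a window of 50 kb moved none out of it. Requiring 50% of a peak to be covered gave 100% for Gli1 and 67.9% for Gli3 in WT limb H3K27ac. Counted in base pairs, unshared shares were 64.2% for Gli2 with purmorphamine, and for Gli3 22.4% in WT and 14.5% in Shh-/- limb H3K27ac, 17.1% with purmorphamine and 36.1% with DMSO. In the better-ranked 50% of both lists Gli1 had 100% in WT H3K27ac, Gli2 had 25.0% in WT and 0% in Shh-/- H3K27ac, 0% in WT H3K4me2, 64.7% with purmorphamine and 0% with DMSO, and Gli3 had 0% in Shh-/- H3K4me2 and 0% with purmorphamine. With gaps of up to 500 bp counted as shared, Gli2 had 13.0% in WT and 9.09% in Shh-/- H3K27ac, and 10.0% in WT and 0% in Shh-/- H3K4me2. Gli3 then had 25.0% in WT and 4.35% in Shh-/- H3K27ac, 16.7% in Shh-/- H3K4me2 and 37.5% with DMSO. Lists of equal size gave 0% for Gli2 with DMSO, and peaks merged within 1 kb gave 62.5% for Gli2 with purmorphamine and 30.0% for Gli3 in WT H3K27ac. A window of 2 kb, and peaks of the gene itself (an alternative chosen after seeing the data), each gave Gli1 100% in WT H3K27ac and 100% with purmorphamine. The cause of these moves was not tested. The low limb shares of Gli2 and Gli3 under wider gaps show how much their counts rest on edges of peaks, and the share of Gli1 in WT H3K27ac, from 4 peaks, ran from 36.4% in the 50 kb window to 100%. No paired analysis was possible because each list pools both replicates, and for the same reason no replicate could be left out.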

Other observations

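The 22 genes acetylated at their start in WT and not Shh-/- limbs, and in purmorphamine and not DMSO, also included Grem1, the BMP antagonist of the limb bud, and Pdgfa, a growth factor gene, and both carried Shh-/- H3K27me3 there, at 25.4% and 1.03% of that list. Grem1 stood at 39.9% of the WT limb list and 75.0% of the purmorphamine list. Pdgfa stood at 74.0% and 9.40%. Gli1 stood at 7.05% and 0.109%.

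The Shh-/- H3K27me3 peak nearest to the Gli2 window lay 119483 bp beyond its edge, 100 bp wide at 64.4% of the list. On the opposite side the nearest lay 345231 bp beyond the edge, at chr1:119418850-119423599, with a log2 ratio of 5.53 and 0.0432% of the list.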
